A study of Mus musculus with 20 samples.

Results

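Transcripts of the Mediator complex were examined in the left ventricle of mice fed 1 of 4 statins. The members are 10 genes (Med1, Med12, Med13, Med13l, Med14, Med23, Med24, Med30, Cdk8 and Ccnc), taken as every probe set that the array's annotation gives 1 of these symbols alone. They have 31 of the 45101 probe sets on the array, and 21 of the 31, with at least 1 for each of the 10 genes, were bright enough to be tested. The genes were chosen by a measured value: 1 Med1 probe set, 1421907_at, was the 1 of 22518 that passed a test of the 5 groups. Its group values, and any that share them, are therefore given below as a description and support nothing.

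The study measured 20 male C57BL/6J mice with 1 Affymetrix array per heart. The mice arrived at 6 weeks of age, had 2 weeks to settle and then ate CE-2 chow for 4 weeks, either plain (4 controls) or mixed with a powdered statin tablet (4 mice per statin). The doses were 4.5 mg/kg per day of pitavastatin, 21.0 of pravastatin, 10.9 of rosuvastatin and 11.4 of atorvastatin. Doses thus differed between drugs, the tablets were given whole, with whatever they hold besides the drug, and 1 control group served all 4 comparisons. Statins inhibit HMG-CoA reductase, the rate-limiting enzyme of cholesterol synthesis.

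Mediator is a large protein assembly that passes signals from DNA-bound transcription factors to RNA polymerase II. It has a head and a middle that touch the polymerase, a tail that receives most activators, and a detachable kinase module of Cdk8 (or its paralog Cdk19), cyclin C, Med12 and Med13 or their paralogs. Med1, in the middle, is the subunit that binds nuclear receptors such as those for thyroid hormone and the PPARs, and it is needed in mouse cardiomyocytes for normal heart function.

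For the 3 genes whose probe sets are described first, a short piece of sequence before a transcription start is shown so that the genes can be told apart there. The pieces come from RefSeq's mouse build GRCm38.p6, which gives a promoter here for 7 of the 10 members. Each piece is 30 bases long, runs 5′ to 3′ on the gene's strand, and has in capitals the GC box (GGGCGG) and, in Med1, also the CCAAT box. They lie at chr11:98193000-98193029 on the minus strand (Med1), chr5:146231111-146231140 on the plus strand (Cdk8) and chr5:118560597-118560626 on the plus strand (Med13l). RefSeq lists several transcripts for each of these genes, and all 3 pieces lie inside the outermost coordinates of their gene, so they are upstream of the start used here and may be transcribed from another.
Med1: gGGGCGGtacaccgctgcggcgagCCAATc
Cdk8: cgctcacaggtgGGGCGGaggcagcgcgag
Med13l: cgcgacagaggcGGGCGGcgttgccggccc
In all, 7 motifs were searched on both strands in the 250 bases before each start. GGGCGG stood in 32.7% of 32851 mouse promoters and CCAAT in 33.8%, so these matches are common. Med13l had 3 GC boxes in its window, Med1 and Cdk8 1 each, and Cdk8 also had the E-box CACGTG, which stood in 6.02% of promoters. TCACCCCAC, the core of a sterol regulatory element, stood in 0.496% of promoters and in none of the 7 member windows. The other motifs searched were the TATA box (TATAAA, in 12.4% of promoters), the cyclic AMP response element (TGACGTCA, 1.55%) and the core bound by ETS factors (CCGGAAG, 6.91%), and Med1, Cdk8 and Med13l had none of them.

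The arrays read as heart muscle, while the atrial markers were mixed. All 8 cardiomyocyte markers (Myh6, Tnnt2, Tnni3, Actc1, Myl2, Mybpc3, Ryr2, Pln) lay above the 99th percentile of probe sets. Of the atrial markers, Myl7 and Sln lay below the filter on mean log2 signal, although the mean linear signal of Myl7 was 169. Nppa (percentile 97.5) and Myl4 (81.4) lay above the filter. Myl4 was uneven between mice, with a log2 SD from 0.21 (atorvastatin) to 1.39 (pitavastatin). Whether some samples held atrial tissue was not tested. The arrays differed in brightness: rosuvastatin 3 was dimmest, with a median signal of 41.7, and atorvastatin 2 brightest, at 144. On the log2 scale the median was 6.09 ± 0.48 in rosuvastatin mice and 6.56 ± 0.26 in controls (SD, n = 4 each, two-sided exact permutation p = 0.171). The control probe set for the middle of 18S ribosomal RNA was 1.49-fold brighter than control in pravastatin and 1.46-fold in rosuvastatin mice (exact p = 0.0286 each, the smallest 4 against 4 mice can give, and 0.229 after Benjamini-Hochberg adjustment over 16 tests). It was 1.08-fold brighter in both pitavastatin and atorvastatin mice. Below, values by mouse are given in the order of the replicate numbers 1 to 4, as log2 of the signal plus 16.

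Med1 probe set 1421907_at was brighter in pravastatin, rosuvastatin and atorvastatin hearts than in controls and was at the control level in pitavastatin hearts. The controls read 10.18, 9.50, 9.52 and 9.60. The pitavastatin mice read 9.61, 9.59, 9.69 and 9.65, all inside the range of the controls, whose upper end is control 1. Pitavastatin 1, 3 and 4 lay above controls 2 to 4. The pravastatin mice read 10.36, 10.40, 10.63 and 10.57, and the rosuvastatin mice 10.61, 10.31, 10.69 and 10.40. Every one of these 8 arrays lay above every control. The atorvastatin mice read 10.25, 9.95, 10.29 and 10.21, below all pravastatin and rosuvastatin mice and above controls 2 to 4, with control 1 inside their range.

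These readings chose the gene, so what follows is their size alone. Against control the group means differed by -0.06 (pitavastatin), 0.79 (pravastatin), 0.81 (rosuvastatin) and 0.48 (atorvastatin), with an SE of 0.13 each. In linear terms the 3 positive ones are 1.73-fold, 1.75-fold and 1.39-fold, on the scale of signal plus 16. Control 1 stood apart from its group, and without it the 4 differences were 0.10, 0.95, 0.97 and 0.64. In bulk tissue, fewer cells of a type and less RNA per cell cannot be told apart, and this holds for every value here. The probe set was picked as the 1 in 22518 (0.00444%) that the moderated F test of limma over the 5 groups called at a Benjamini-Hochberg adjusted p of 0.05, and nothing more is read from that test.

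Other measures also differed between groups, not all of them in the same ones. The 18S ribosomal control was brighter in the pravastatin and rosuvastatin mice, as given above. Of the smooth muscle and pericyte markers, 5 of 6 passed the filter on low signals. The mean of 5 of these 5 was above the control mean in rosuvastatin mice, none past the test (limma, adjusted p of 0.377 or more), and their summed signal was 23185 to 27466 against 17100 to 24974, so the groups overlapped. In pitavastatin, pravastatin and atorvastatin mice 4, 3 and 4 of these 5 were above control. Tagln had the largest difference, 1.09 in rosuvastatin and 0.90, 0.38 and 0.42 in pitavastatin, pravastatin and atorvastatin mice. Of the 8 cardiomyocyte markers, 7 had a mean above control in pitavastatin mice (median difference 0.09) and 0 in pravastatin, rosuvastatin and atorvastatin mice (medians -0.11, -0.19 and -0.12), and limma called 0 of them in any statin. Their summed signal overlapped the controls in every group (236388 to 286885 in controls, 261574 to 299310 in pitavastatin, 212212 to 292336 in pravastatin, 162256 to 344007 in rosuvastatin and 158840 to 361146 in atorvastatin mice). The part of these measures in the Med1 values was not tested. With the array median as a covariate the pravastatin and rosuvastatin differences of 1421907_at were 0.78 and 0.74, and with each array centred on its median they were 0.89 and 1.19. That centring itself moved the median of all tested probe sets to 0.08 in pravastatin and 0.36 in rosuvastatin mice.

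**Figure D1:**
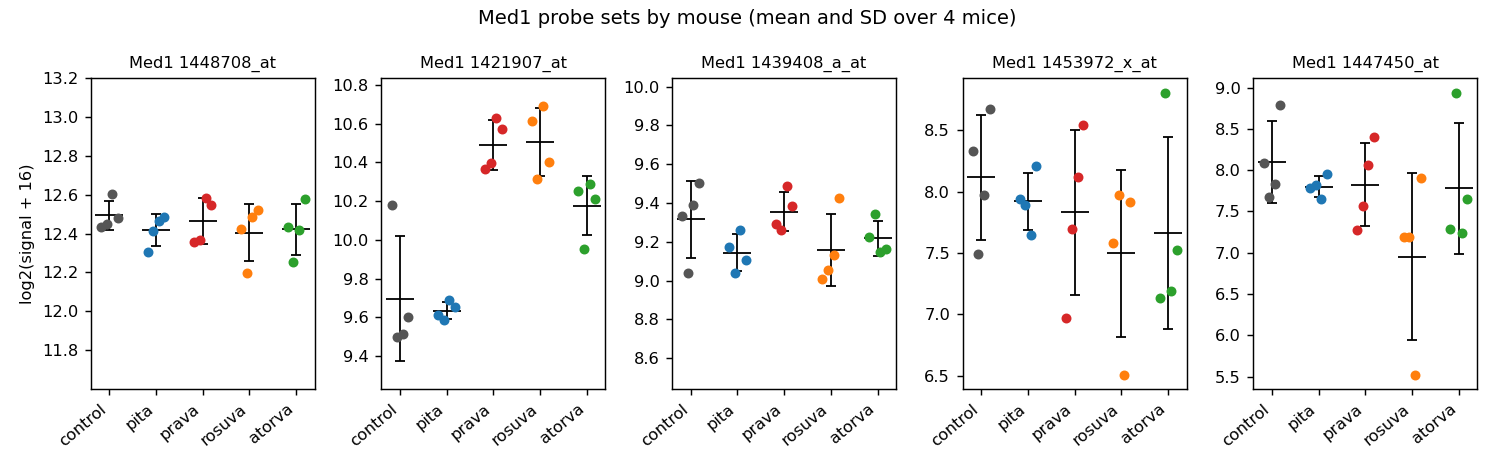
The 5 tested Med1 probe sets, 1 panel each, as log2(signal + 16) on the vertical axis against the 5 groups, with a point per mouse and bars for the mean and SD over 4 mice. 1421907_at separates pravastatin and rosuvastatin mice (10.31 to 10.69) from all controls, while in the other 4 panels every statin group overlaps the controls.

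The call that picked this probe set was itself lost under many settings, and held in 17 of 31 alternatives. It ended with the arrays centred on their medians (adjusted p = 0.861, rank 3), with no trend in the prior variance (0.0810), and when 1 of 12 arrays was left out, namely control 2, 3 or 4, any of the pitavastatin arrays, pravastatin 2, 3 or 4, rosuvastatin 1 or atorvastatin 4.

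The other Med1 probe sets did not show this pattern. Med1 has 7 probe sets on the array, of which 5 were tested, and 3 of the 7 (1421907_at, 1421906_at and 1450402_at) are annotated to the same GenBank sequence. 1421906_at and 1450402_at were dim, at the 42.1 and 41.5 percentile of mean log2 signal, and stayed untested. Their group means ran from 5.97 to 6.45 and from 5.70 to 6.55. In 1450402_at the pattern of 1421907_at was absent, since pravastatin (6.15) and rosuvastatin (6.19) lay at the control level of 6.18.

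The brightest Med1 probe set, 1448708_at, was flat. Its controls read 12.44, 12.45, 12.61 and 12.48, and all 20 mice lay between 12.20 and 12.61. Group means were 12.49 (control), 12.42 (pitavastatin), 12.46 (pravastatin), 12.41 (rosuvastatin) and 12.42 (atorvastatin). No group stood clear of another. The differences from control were -0.08, -0.03, -0.09 and -0.07, and the 95% interval for pravastatin (-0.21 to 0.15) and rosuvastatin (-0.27 to 0.09) leaves out a rise of the size seen in 1421907_at (F test of limma, adjusted p = 0.939).

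1439408_a_at, whose suffix marks probes shared by several transcripts of 1 gene, likewise overlapped in all groups. In the same order of groups its means were 9.32, 9.14, 9.36, 9.16 and 9.22 (adjusted p = 0.787, limma F test). The 95% intervals of the pravastatin and rosuvastatin differences were -0.19 to 0.27 and -0.39 to 0.07.

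The remaining pair of tested Med1 probe sets differed widely between arrays of the same group. 1453972_x_at, whose suffix marks probes that may bind other sequences too, had its highest group mean in controls (8.12) and its lowest in rosuvastatin mice, with a pooled SD within groups of 0.61. 1447450_at had means of 8.10, 7.80, 7.82, 6.95 and 7.78 in the usual order of groups and a pooled SD of 0.66. Neither passed the F test of limma (adjusted p = 0.859 and 0.787). Over the 20 arrays, which share brightness as well as treatment, 1453972_x_at correlated with the array's median at r = 0.946 (rho 0.928) and 1447450_at at r = 0.948 (rho 0.866). For 1421907_at the same r was -0.40 (rho -0.33).

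The lowest reading of 1447450_at, 5.52, came from rosuvastatin 3, the dimmest array. With it the rosuvastatin difference was -1.15 (95% interval -2.03 to -0.26, adjusted p = 0.452 by limma), without it -0.67, and with the array median as a covariate -0.36. For 1453972_x_at the rosuvastatin difference of -0.62 became 0.13 with that covariate. These values moved with the array median in the same direction as the group did, and the part of brightness in the result was otherwise not tested.

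**Figure D2:**
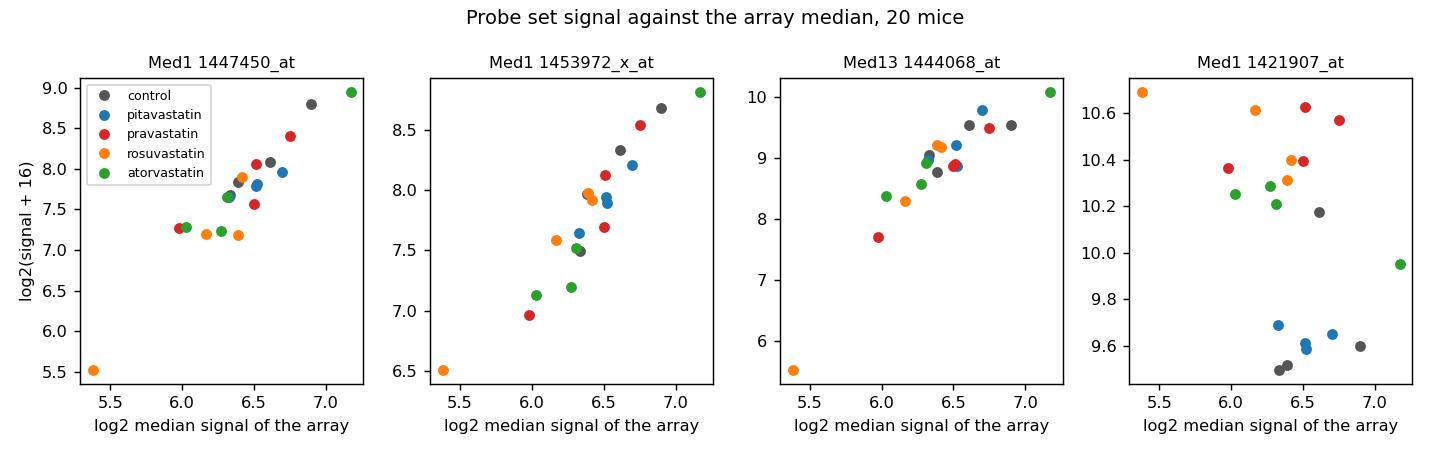
Log2(signal + 16) of 4 probe sets on the vertical axis against the log2 median signal of the array on the horizontal axis, 1 point per mouse, coloured by group. The Med1 probe sets 1447450_at and 1453972_x_at and the Med13 probe set 1444068_at climb with the array median (r = 0.948, 0.946 and 0.927), and Med1 1421907_at does not (r = -0.40).

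Within each array, the log2 difference between 1421907_at and 1448708_at removes anything that scales both alike. Control and pitavastatin mice stood at -2.80 ± 0.37 and -2.78 ± 0.07, pravastatin and rosuvastatin mice at -1.97 ± 0.02 and -1.90 ± 0.15, and atorvastatin mice between them at -2.25 ± 0.11 (SD, n = 4 each). All pravastatin (-1.99 to -1.96) and rosuvastatin (-2.12 to -1.79) arrays lay above all controls (-3.09 to -2.26). Control 1, at -2.26, lay inside the atorvastatin range of -2.37 to -2.13. Against control the shifts were 0.01, 0.82, 0.90 and 0.55. They hold the values that picked 1421907_at, so they are a description too. Set against 1439408_a_at in place of 1448708_at, the shifts were 0.11, 0.75, 0.97 and 0.58. Which transcript form each probe set reads was not analysed here, and levels of different probe sets are not comparable.

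**Figure D3:**
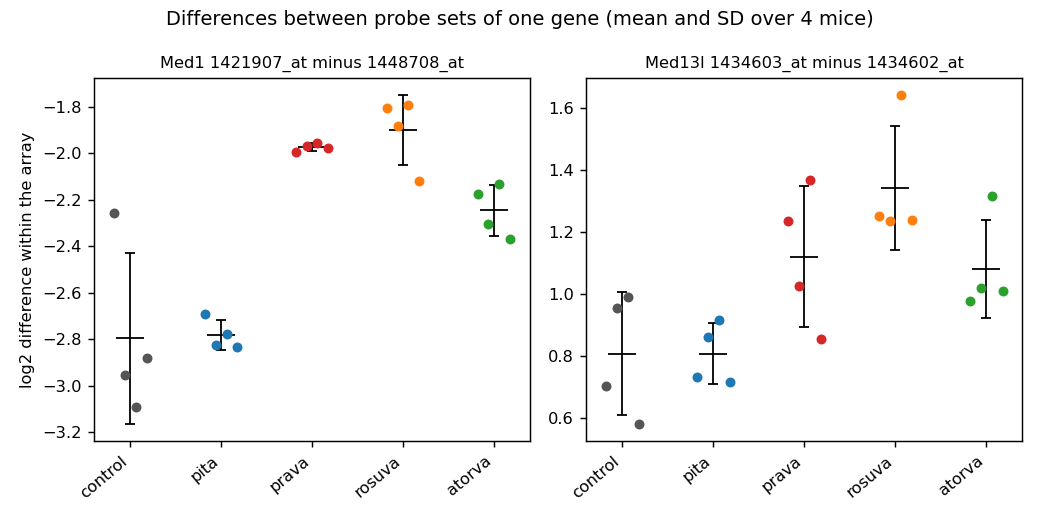
Log2 difference between a pair of probe sets of the same gene on the same array, by group, with a point per mouse and bars for the mean and SD over 4 mice. For Med1 (1421907_at minus 1448708_at) pravastatin and rosuvastatin mice lie at -2.12 or above and all controls at -2.26 or below. For Med13l (1434603_at minus 1434602_at) the rosuvastatin mice (1.24 to 1.64) lie above all controls (0.58 to 0.99).

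Of the kinase module, Cdk8 and 1 probe set of Med13l were the most like Med1 1421907_at over the 20 arrays (r = 0.838 and 0.886). Their differences from control were smaller and passed no adjusted test with all 20 arrays kept and weighted alike. Cdk8 is the cyclin-dependent kinase of the module and phosphorylates transcription factors and the transcription machinery. Its probe set, 1460389_at, read 9.72, 9.60, 9.57 and 9.65 in controls and 9.46, 9.47, 9.66 and 9.55 in pitavastatin mice. It read 9.82 to 10.13 in pravastatin, 10.27, 9.80, 10.38 and 9.85 in rosuvastatin and 9.87, 9.70, 10.17 and 9.95 in atorvastatin mice. All pravastatin and rosuvastatin mice lay above all controls, while atorvastatin 2, at 9.70, lay below control 1.

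The Cdk8 differences from control were -0.10, 0.31, 0.44 and 0.28 in pitavastatin, pravastatin, rosuvastatin and atorvastatin mice (SE 0.12 each), with 95% intervals of -0.36 to 0.16, 0.05 to 0.57, 0.18 to 0.70 and 0.02 to 0.54. Cdk8 passed no comparison after adjustment (limma, F test adjusted p = 0.364, rank 87, with the statin contrasts at an adjusted p of 0.452 or more). With array weights, where limma's F test called 185 probe sets, Cdk8 was called (adjusted p = 0.0315). Cdk8 read lower on brighter arrays (r = -0.63, rho = -0.60, 20 arrays), and with the array median as a covariate the rosuvastatin difference was 0.30. With the arrays centred on their medians it was 0.82, where the median of all tested probe sets itself moved to 0.36.

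Med13l, a paralog of Med13 that tethers the kinase module to the core complex, has a pair of tested probe sets annotated to the same GenBank sequence, and they disagreed. 1434603_at read 11.23, 10.69, 10.88 and 10.55 in controls and 10.87, 10.77, 10.83 and 10.98 in pitavastatin mice. It read 11.34, 11.03, 11.37 and 11.25 in pravastatin, 11.40, 11.17, 11.64 and 11.36 in rosuvastatin and 11.17, 11.16, 11.45 and 11.12 in atorvastatin mice. The statin groups reached higher than the controls, but control 1, at 11.23, lay inside the range of all 3 of these groups. Differences from control were 0.02, 0.41, 0.55 and 0.39 (SE 0.13 each).

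Neither the F test of limma over all 20 arrays (adjusted p = 0.361, rank 48) nor any statin contrast (adjusted p of 0.377 or more) called 1434603_at. It passed the F test with array weights (adjusted p = 0.0182). Without control 1 it also passed (adjusted p = 0.0319), and the 4 differences were 0.16, 0.54, 0.69 and 0.52. Without control 2, 3 or 4 it did not pass the F test (adjusted p = 0.519, 0.524 and 0.606). Nor did it pass with median centring (0.861) or with the array median as a covariate (0.212, rank 190). It read lower on brighter arrays (r = -0.49, rho = -0.42, 20 arrays), and with that covariate the rosuvastatin difference was 0.47. By contrast, 1434602_at had group means of 10.03, 10.05, 10.12, 10.05 and 10.14 (F test adjusted p = 0.961). Within arrays, 1434603_at minus 1434602_at stood at 0.81 ± 0.20 and 0.81 ± 0.10 in control and pitavastatin mice, at 1.12 ± 0.23 and 1.34 ± 0.20 in pravastatin and rosuvastatin mice, and at 1.08 ± 0.16 in atorvastatin mice (SD, n = 4 each). The rosuvastatin mice lay above all controls in this difference, and the pravastatin and atorvastatin ranges overlapped them. The third Med13l probe set, 1453906_at, was dim and not tested.

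**Figure D4:**
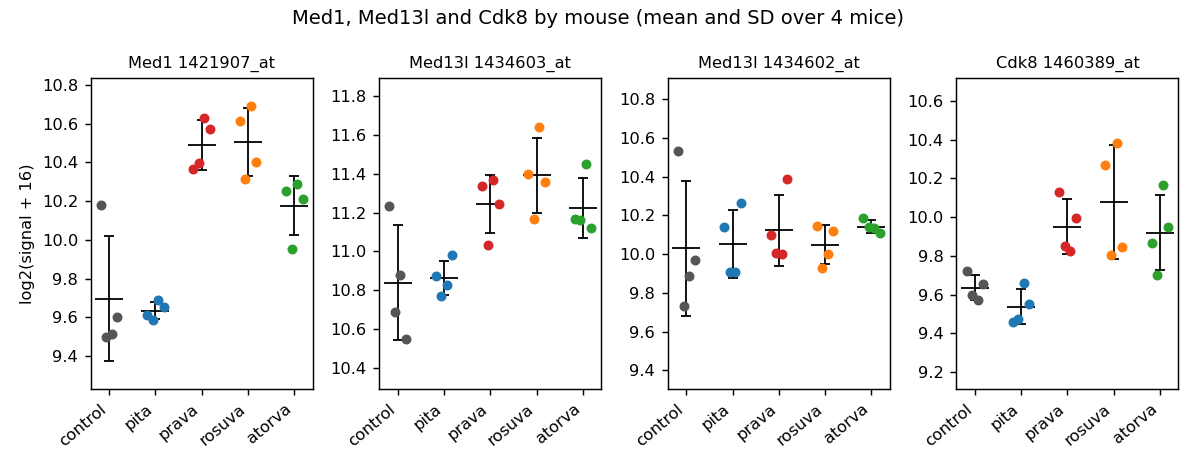
Log2(signal + 16) of Med1 1421907_at, both tested Med13l probe sets and Cdk8 on the vertical axis, by group, with a point per mouse and bars for the mean and SD over 4 mice. Pitavastatin mice lie with the controls and below all mice of the other 3 statins in Med1, Med13l 1434603_at and Cdk8. Med13l 1434602_at shows no such order.

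In these 3 probe sets every pitavastatin array lay below every one of the 12 arrays of the other statins. That held for 3 of the 21 tested members and for 0.919% of all tested probe sets, while 0 members lay wholly above those 12 arrays (0.417% of all). This order was not used to test a difference between drugs, whose doses differ. By an unadjusted p under 0.05 in the F test, the same 3 probe sets (Med1 1421907_at, Med13l 1434603_at, Cdk8) were the members past that line, against 6.24% of all tested probe sets. Since the members were picked with these results in view, the counts are a description.

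The other tested probe sets of the kinase module did not part pitavastatin from the other statins array by array. Med12, which activates the kinase through cyclin C, was read by 1425585_at at 8.65, 9.05, 8.71 and 8.64 in controls and at 8.47, 7.92, 8.79 and 8.60 in pitavastatin mice. It read 8.35, 8.31, 8.45 and 8.60 in pravastatin, 8.59, 8.52, 8.52 and 8.52 in rosuvastatin and 8.75, 8.52, 8.24 and 8.62 in atorvastatin mice. All pravastatin and rosuvastatin mice lay below all controls, by a narrow margin. The differences from control were -0.32, -0.34, -0.23 and -0.23 (SE 0.16 each, limma F test adjusted p = 0.787), and without control 2 the rosuvastatin and atorvastatin values were -0.13 and -0.14. With median centring the rosuvastatin value turned to 0.16, under the shift of all probe sets to 0.36.

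Cyclin C, the partner that Cdk8 needs for activity, was tested by a pair of Ccnc probe sets with different orders. 1428570_at had group means of 9.62, 9.39, 9.48, 9.45 and 9.63 (control, pitavastatin, pravastatin, rosuvastatin, atorvastatin), and 1417861_at had 8.33, 8.16, 8.51, 8.66 and 8.42. The widest difference was 0.33 for 1417861_at in rosuvastatin mice (95% interval -0.07 to 0.73, adjusted p = 0.495 by limma), and without control 2 it was 0.19. The group means of 1417861_at stood in the same order as those of Cdk8 and Med1 1421907_at, with pitavastatin lowest and rosuvastatin highest. All groups of both probe sets overlapped the controls. The other 3 Ccnc probe sets were dim.

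Med13, which links the kinase module to the core and is known from mouse hearts for a role in whole-body metabolism, had 4 tested probe sets and no shared order. The brightest, 1453160_at, had means of 11.14, 11.06, 11.14, 11.08 and 11.36 in the same order of groups (adjusted p = 0.808, limma F test). The group means of 1438725_at spanned 0.31, with the highest, 7.31, in atorvastatin mice. 1436904_at and 1444068_at were lower in all statin groups than in control and tracked array brightness, with r = 0.811 and 0.927 (rho 0.833 and 0.854). For 1444068_at, rosuvastatin 3 read 5.53 against 8.29 to 9.21 in the other rosuvastatin mice, so its difference of -1.17 became -0.33 without that array and -0.08 with the array median as a covariate.

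Among the backbone and tail subunits, Med14, the scaffold that joins the complex's parts, was flat in its brighter probe sets. 1437632_at had group means from 9.70 to 9.80 and 1456785_at from 8.51 to 8.61, and every statin group overlapped the controls. 1457167_at, the dimmest member that was tested (mean signal 94.9), had means from 6.53 to 6.92. Just under the filter lay Med13 1453161_at (mean signal 78.7).

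Med23 and Med24, tail subunits that receive activators, showed small differences. Med23 (1452064_at) read 8.07, 8.66, 8.32 and 8.43 in controls and 8.37, 7.93, 7.86 and 8.12 in pravastatin mice, and its group means were 8.37, 8.17, 8.07, 8.09 and 8.16. The differences from control were -0.20, -0.30, -0.28 and -0.21 (SE 0.14 each), and none passed after adjustment (0.453 or more by limma). Control 2 held the top reading, and without it the rosuvastatin and atorvastatin values were -0.18 and -0.12, while median centring turned the rosuvastatin value to 0.10. Med24 (1424180_a_at) read 7.02, 7.19, 7.16 and 7.16 in controls and 7.48, 7.20, 7.34 and 7.60 in pitavastatin mice, which lay above all controls by little. Its pitavastatin difference was 0.27 (95% interval -0.11 to 0.66).

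Med30, a head subunit whose loss is known to cause cardiomyopathy in mice, was read by 1448917_at at 8.67, 9.07, 9.02 and 8.94 in controls and at 8.95, 8.55, 8.55 and 8.46 in pravastatin mice. Pravastatin 1 lay among the controls, and the other pravastatin mice lay below them. The pravastatin difference was -0.30 (95% interval -0.55 to -0.05, adjusted p = 0.992 by limma). In pitavastatin, rosuvastatin and atorvastatin mice it was -0.01, -0.07 and -0.13.

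Counted by drug, limma called 0 of the 21 tested members and 0 of 22518 probe sets (0%) against control in each of the 4 statins and in their mean. At an unadjusted p under 0.05, pitavastatin had 0 members higher and 0 lower (1.03% and 0.906% of all tested probe sets). Pravastatin had 3 higher, the probe sets of Med1, Med13l and Cdk8 described above, and 3 lower, Med12, Med23 and Med30 (2.88% and 1.06% of all). Rosuvastatin had the same 3 higher and Med1 1447450_at lower (4.01% and 6.96%). Atorvastatin had those 3 higher and 0 lower (2.91% and 1.65%). For the mean of the 4 statins, 3 were higher and Med12 and Med23 lower (2.14% and 0.906%). All of these contrasts share the same 4 controls.

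By separation of the arrays, Med1 1421907_at and Cdk8 lay wholly above all controls in pravastatin (1.92% of all tested probe sets did) and in rosuvastatin mice (1.87%). Med12 lay wholly below in both (1.03% and 2.66%). In pitavastatin mice Med24 lay wholly above (0.924%) and 0 members below (0.764%), and in atorvastatin mice there were 0 of either (0.799% above, 0.573% below). The median difference of the 21 tested member probe sets was -0.07, -0.003, -0.07 and -0.07 in pitavastatin, pravastatin, rosuvastatin and atorvastatin mice, with 3, 10, 8 and 10 of 21 higher than control. Over all tested probe sets the medians were -0.003, -0.02, -0.02 and -0.03, and 49%, 45%, 45.9% and 43.9% were higher than control. In pitavastatin mice fewer of the members were thus above control than of all probe sets, a share that was not tested. Over all tested probe sets, the median 95% interval of a difference from control in 1 statin reached 0.36 to either side.

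**Figure D5:**
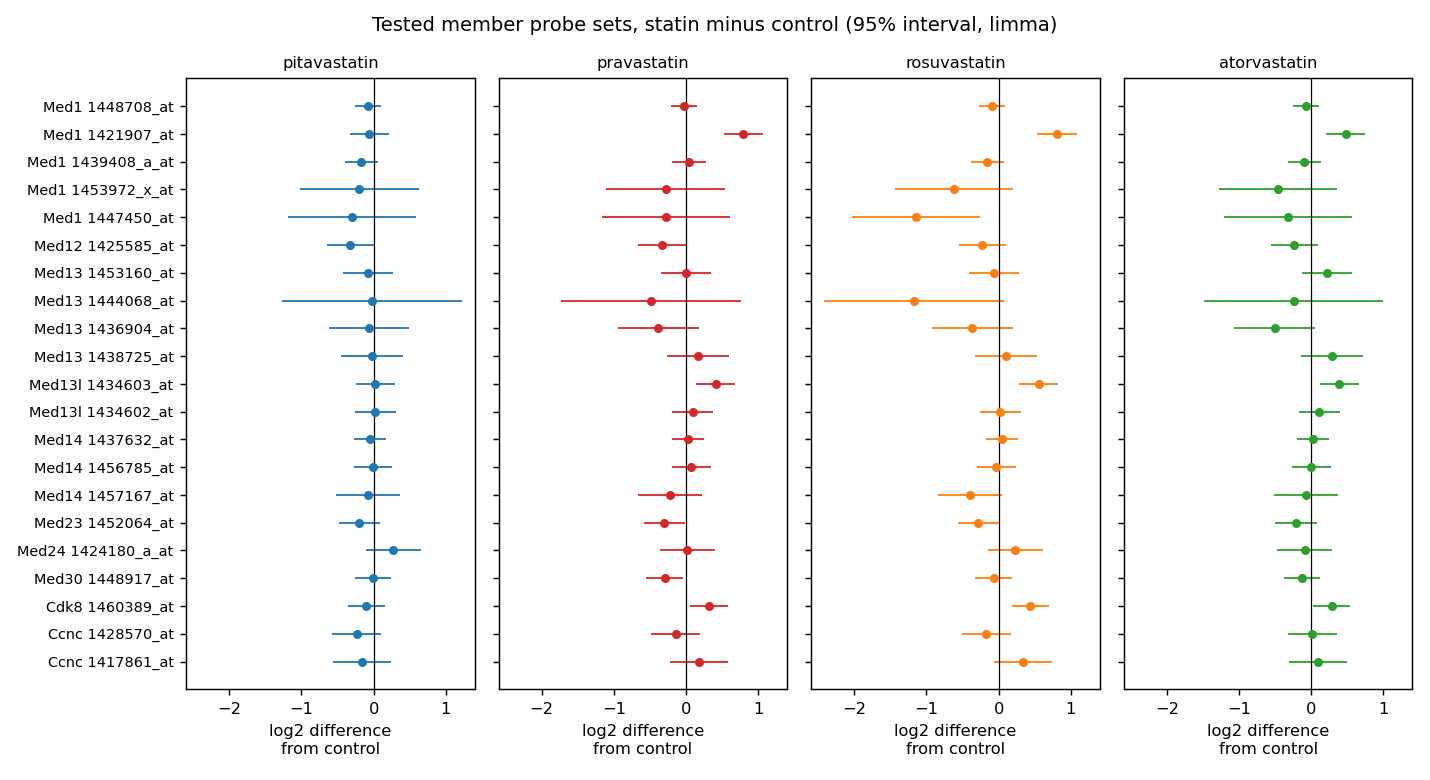
Log2 difference from control of the 21 tested member probe sets, 1 panel per statin, with 95% intervals from limma and a line at 0. Med1 1421907_at, Med13l 1434603_at and Cdk8 lie right of 0 in pravastatin (0.79, 0.41 and 0.31), rosuvastatin (0.81, 0.55 and 0.44) and atorvastatin (0.48, 0.39 and 0.28), and near 0 in pitavastatin mice. The widest bars belong to the probe sets that follow the array median.

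Beyond the 10 members, 22 of 23 further Mediator genes on a list of the complex were measured by their brightest tested probe set. Limma called 0 of the 22 in the F test and 0 against control in any statin. At an unadjusted F test p under 0.05 there was 1 of the 22, against 6.24% of all tested probe sets. Higher than control were 15, 11, 18 and 10 of 22 in pitavastatin, pravastatin, rosuvastatin and atorvastatin mice, with medians of 0.07, 0.003, 0.08 and -0.02. Over all tested probe sets 49%, 45%, 45.9% and 43.9% were higher. The smallest F test p was that of Med26, a middle subunit that recruits elongation factors (unadjusted p = 0.0203, adjusted p = 0.694 by limma), with differences of -0.07, 0.15, 0.31 and 0.35. Med6 and Med19 came next (adjusted p = 0.787 each). Cdk19, the paralog that can take the place of Cdk8, had differences of 0.03, 0.12, 0.25 and 0.26 and also passed no test.

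Transcripts for proteins that Mediator works with, and of thyroid hormone responsive heart genes, did not pass either. Of the lists, 10 of 12 RNA polymerase II subunits, 14 of 21 nuclear receptors, 10 of 10 receptor coactivators, 11 of 12 elongation factors, initiation kinases and cohesin subunits, and 7 of 10 thyroid hormone responsive heart genes were measured, and limma called 0 in each. Ccnt2, a cyclin of the elongation kinase P-TEFb, had the smallest F test p among them (adjusted p = 0.353) with differences of -0.02, 0.43, 0.38 and 0.15. Thra, a receptor that Med1 binds, had -0.08, 0.04, 0.39 and 0.15. Myh7, the slow myosin heavy chain that thyroid hormone lowers, had 0.11, 0.11, -0.05 and 0.57 (F test adjusted p = 0.729). The others among the 3 smallest F test p of a list were Smc3 and Mnat1, Nr3c1 and Nr1h3, Polr2a, Polr2e and Polr2g, Crebbp, Ncoa2 and Ncoa3, Hcn2 and Dio2, and of the Mediator head, middle and tail Med27, Med31 and Med15. Smc3, a cohesin subunit, had the lowest adjusted p of these by limma (0.680).

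Likeness to Med1 1421907_at was measured as Pearson's r over the 20 arrays for 18997 tested probe sets with 1 symbol other than Med1. The points share treatment, array brightness and control 1, so r is a description. The 6 most alike were Pum2 (0.933), Synj2bp (0.913), Cbx5 (0.910), Smad4 (0.910), Tug1 (0.909) and Usp7 (0.903). Pum2 encodes an RNA-binding repressor of translation, and Smad4 the common mediator of TGF-beta signals. The group means of Pum2 were 9.56 and 9.63 in control and pitavastatin mice, 10.18 and 10.15 in pravastatin and rosuvastatin mice, and 9.97, between these levels, in atorvastatin mice.

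Among the members, Med13l 1434603_at ranked 17 of 18997 by this r (0.886) and Cdk8 ranked 59 (0.838). The next, Ccnc 1417861_at, ranked 1023 (0.594), and Med13l 1434602_at had r = 0.371. Once each group's mean was taken away, r with Med1 was 0.739 for Med13l 1434603_at, 0.661 for Med13l 1434602_at and 0.541 for Cdk8. Control 1 was the highest control in Med1 1421907_at (10.18), in both Med13l probe sets (11.23 and 10.53) and, as read above, in Cdk8. How much of these r rests on that mouse was not tested. Med14 1457167_at, Med23 and Med30 were at the other end, with r of -0.60, -0.57 and -0.55.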

How the data were processed

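Each array's deposited table gives 1 linear signal intensity per probe set, which per the submitters' processing notes was made with MAS5. RNA of each left ventricle (100 ng) was amplified with the NuGEN Ovation system, per the labels' protocols. Trimmed of 2% at either end, every array averaged 500.0, so arrays had been scaled to 1 level. Here 16 was added and log2 taken, 64 Affymetrix controls were left out of the tests, and the brighter 50% of 45037 probe sets by mean log2 over 20 arrays were kept (22518, signal of about 81.8). Signal, not read depth, limits precision, as does the number of arrays. Limma 3.58.1 in R 4.3.3 fitted 1 mean per group with eBayes (trend in the prior), and p was adjusted by Benjamini-Hochberg over all tested probe sets, with calls at 0.05. Array measures were compared by exact permutation. The code was tested on simulated data. Members, lists and tests were chosen with earlier results of these data known. Named genes are all member probe sets, the 3 genes with the smallest F test p in each list and the 6 probe sets most like Med1. Probe sets with several symbols (932) or none (9160) were not named. Alternatives changed normalization, pseudocount, filter, prior, weights, block, covariate and arrays. The labels do not pair mice that share a number, and their values do not settle whether such mice were paired.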

Additional observations from a re-analysis of the deposited data

Results flagged for a closer look

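Of 125 sets of 4 mice checked (each tested member and array measure in each group), 7 held a mouse whose gap to the nearest of the others exceeded 0.829 of the group's range. Chance flags about 1 in 20 such sets. Med1 1421907_at read 10.18 in control 1 and 9.50 to 9.60 in the other controls. Med12 read 9.05 in control 2 (others 8.64 to 8.71) and 8.59 in rosuvastatin 1 (others 8.52). Med13 1453160_at read 11.15 in pitavastatin 3, against 11.03 in the other mice of that group. Med13l 1434603_at read 11.45 in atorvastatin 3 (others 11.12 to 11.17). Med24 read 6.71 in atorvastatin 4 (others 7.13 to 7.18). Between the 3′ and 5′ beta-actin control probe sets, the log2 difference was 2.00 in pravastatin 2 and 2.29 to 2.32 in the rest of that group.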

How the results depend on the processing

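The count of probe sets that limma's F test called, 1 in the report, was 0 with median centring, 0 with no trend in the prior, 3 with the brighter 30%, 185 with array weights, 5 with the array median as a covariate and 2 without rosuvastatin 3 and atorvastatin 2, an omission chosen after seeing the data. Pravastatin against control went from 0 to 5 with the brighter 30%, to 16 with array weights and to 6 with the covariate. Array weights gave 12 for rosuvastatin and 2 for the mean of the 4 statins. Leaving out 1 array gave 0 to 49 in the F test, 0 to 0 for pitavastatin, 0 to 23 for pravastatin, 0 to 17 for rosuvastatin, 0 to 18 for atorvastatin and 0 to 9 for the mean, with each highest count without control 1. The cause was not tested. The replicate block gave 6 calls in the F test. Deviations from the group means correlated at a median of 0.08 over 40 same-numbered pairs of arrays (-0.54 to 0.69, 19 over 0.1). Over pairs with other numbers the median was -0.04, and 9 of 20 arrays were nearest to their own number. Whether arrays of 1 number share a step of the work was not tested. The shift of 1421907_at against 1448708_at stayed between 0.72 and 1.00 in pravastatin, 0.80 and 1.08 in rosuvastatin, 0.45 and 0.73 in atorvastatin and -0.08 and 0.19 in pitavastatin mice with 1 array left out. Of 3314 member values under the alternatives, 26 moved by 1 SD or more and 135 changed sign. Median centring moved the median of all probe sets to 0.36 in rosuvastatin and 0.14 in the mean of the statins.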
